A study of Homo sapiens with 145 samples.

Results

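The response of HT-1080 cells to 100 µM methyl methanesulfonate (MMS) is described here from 12 of the 145 arrays of the series. The 12 were chosen by title: 6 arrays of cells exposed to 100 µM MMS and 6 arrays of cells given the DMSO vehicle of the MMS experiment. HT-1080 is an established human fibrosarcoma line, and a single line stands for the tissue throughout. Cells had attached overnight and were exposed for 24 h, with DMSO at 0.1% in treated and vehicle wells alike, so the vehicle arrays show DMSO-exposed cells. Each array carries a replicate number from 1 to 6, and the arrays with the same number were compared as pairs. The labels do not say that the numbers stand for separate cultures, so p-values measure the spread between these samples, which may be partly technical. The other MMS doses (1, 3, 10, 30, 300 and 500 µM) and a group exposed to 0.1 µM etoposide (ETP) for 24 h with its own DMSO vehicle are used only to place the 100 µM dose.

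MMS transfers methyl groups to DNA, mainly to ring nitrogens of guanine and adenine. Base excision repair, opened by the glycosylase MPG, removes most of these lesions, and MGMT and the ALKBH enzymes reverse others directly. Lesions that meet a replication fork or an RNA polymerase before repair can stall it, and damage signalling stabilises p53, a transcription factor whose targets arrest the cell cycle, aid repair, promote death and restrain p53 itself. MMS also reacts with protein thiols, and thiol-reactive chemicals are known to release the transcription factor NRF2 from its inhibitor KEAP1.

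After normalization the arrays of the groups compared were alike in their overall values. Array medians lay between 3.12 and 3.14 (log2) for vehicle and between 3.11 and 3.14 for 100 µM, and upper quartiles between 5.82 and 5.97 and between 5.82 and 5.98. A two-sided exact paired permutation test gave p = 0.781 for the median and p = 0.969 for the upper quartile (adjusted p = 0.969 for both), where 0.03125 is the smallest p that 6 pairs allow. The deposited values had already been normalized by GCRMA, which makes arrays alike. The test therefore cannot show whether total RNA or array quality differed between the groups. Of 14 mesenchymal markers with a probe set, 13 were at 4 or more (log2) in every one of the 12 arrays, THY1 being the exception. Epithelial genes were below 4 in every array for 10 of 12 markers, KRT8 and KRT18 being detected, as were 9 of 10 blood cell markers and 5 of 6 endothelial markers. In bulk RNA, fewer cells that express a gene and less RNA per cell cannot be told apart.

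At 100 µM, 295 of 12070 genes were called changed (2.44%), 63 higher (0.522%) and 232 lower (1.92%). A gene was called at a Benjamini-Hochberg adjusted p under 0.05 in limma, with the replicate number as a block, and a difference of at least 1.5-fold. The fold limit set these counts, because the test alone passed 2227 genes (18.5%), 1053 higher (8.72%) and 1174 lower (9.73%). Without the replicate block 194 genes were called, 50 higher and 144 lower, and all 194 were among the 295. With the 1, 3, 10 and 30 µM arrays added to the vehicle arrays as control, 220 genes were called, of which 218 were shared in the same direction.

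The called changes were mostly modest. The median difference was 0.71 (log2) among the 63 genes called higher and -0.74 among the 232 called lower, and 9 and 33 of them exceeded 2-fold. The direction was the same in all 6 replicate numbers for 59 of the 63 and 229 of the 232, whereas 13.8% of all genes were higher and 13.8% lower in all 6. The vehicle and 100 µM arrays did not overlap for 32 of the 63 and 90 of the 232, against 1.43% of all genes not overlapping upward and 1.71% downward. In 11 of the 63 the vehicle mean was under 4 (log2), and in 39 of the 232 the 100 µM mean was. Over all 12070 genes tested the vehicle mean was under 4 in 1908 and the 100 µM mean in 1951. Levels that average below 4 were treated as background, which leaves the size of such a difference uncertain.

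The largest rise belonged to AKR1C1, an aldo-keto reductase that NRF2 is known to induce. Its level was 5.29, 5.40 and 6.13 (log2; lowest, median and highest of 6 vehicle arrays) and 7.16, 7.92 and 8.31 in the 100 µM arrays. The groups did not overlap, and the difference was 2.32 ± 0.15 (log2, SE; n = 6 and 6; adjusted p = 8.9e-15 in limma), which is 5.00-fold. AKR1C2, a close relative, went from 5.44, 5.69 and 5.84 to 6.46, 6.82 and 7.16 and rose by 1.13 ± 0.15. The AKR1C family is nearly identical in sequence, so the member behind each probe set is uncertain. AKR1B10, another aldo-keto reductase, rose by 0.97 ± 0.11. NQO1, a quinone reductase and standard NRF2 target, moved from 9.76, 9.84 and 9.95 to 10.57, 10.72 and 10.80. That difference of 0.85 ± 0.05 had the smallest standard error of the NRF2 genes named here (adjusted p = 1.5e-16), and the 6 vehicle arrays lay within 0.2 log2 units of one another. NMRAL2P, a pseudogene transcript tied to NRF2 activity, rose by 1.35 ± 0.16 from a vehicle mean under 4.

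These 5 were the called members of the NRF2 antioxidant list, of 24 measured genes (background 0.522%), and none was called lower. At any fold 15 of the 24 passed the test upward (background 8.72%) and 1 downward (background 9.73%), and the list median was 0.22 against 0.0045 over all genes tested. HMOX1, heme oxygenase and the best known oxidative stress gene of the list, was not called. Its vehicle levels of 6.12, 6.58 and 7.21 overlapped its 100 µM levels of 5.99, 6.33 and 6.63 (difference -0.28 ± 0.15, adjusted p = 0.22 in limma). The NRF2 genes named here thus moved unequally.

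**Figure D1:**
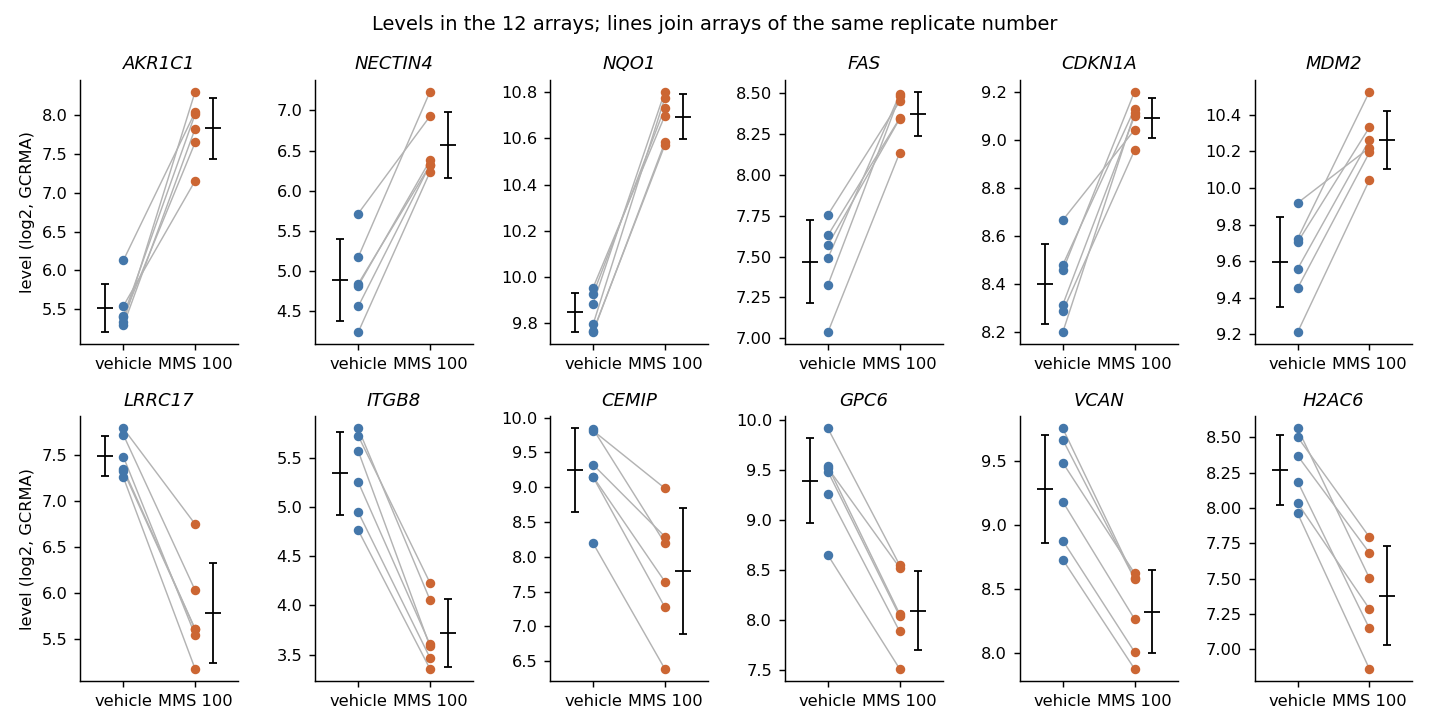
Level (log2, GCRMA) of 12 named genes in the 6 vehicle and the 6 MMS 100 µM arrays, with grey lines between arrays of the same replicate number and black bars for mean ± SD. The y axes differ and do not start at 0. In the top row every line rises and in the bottom row every line falls, and CEMIP is the 1 gene shown whose groups overlap.

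Other large rises came from varied genes. SPANXC, of a testis-specific X-linked family whose copies are nearly identical, rose by 1.79 ± 0.16, from 4.47, 4.79 and 4.87 to 6.24, 6.48 and 6.81. IFI44, an interferon-inducible gene, rose by 1.16 ± 0.14, while OAS1, another such gene and a sensor of double-stranded RNA, fell by 0.80 on the log2 scale (SE 0.11). These 2 were the called genes of 16 measured interferon-stimulated genes (background 2.44% in either direction), whose median was 0.01. FILIP1, a filamin-binding protein, rose by 1.19 ± 0.15, and KYNU, a kynurenine pathway enzyme, by 0.97 ± 0.16. For both the vehicle mean was under 4, and the other KYNU probe sets, at 0.26 and 0.53, were not called. ALDH3A2, which oxidises fatty aldehydes, rose by 0.91 ± 0.07, from 8.37, 8.47 and 8.91 to 9.22, 9.44 and 9.73 with no overlap. The long noncoding RNAs OVAAL, from a vehicle mean under 4, and ARLNC1 rose by 1.10 ± 0.17 and 1.00 ± 0.14.

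A minority of the p53 targets were called higher. Of 113 genes in 5 p53 lists, 95 were measured, and 17 of these were called higher (background 0.522%) and 1 lower (background 1.92%). At any fold 52 passed the test upward (background 8.72%) and 6 downward (background 9.73%), 77 of the 95 differences were positive, and the median was 0.25. With the 4 lower doses added to the control the called count of 18 became 10. The calls lost were those of TP53INP1 (0.56), PHLDA3 (0.45), CDKN1A (0.54), PLK3 (0.50), DDB2 (0.54), RRM2B (0.55), DGKA (0.55) and CD82 (-0.56), each of which kept its direction and passed the adjusted p but fell short of 1.5-fold. Leaving out single arrays or numbers gave 16 to 20. The members were gathered as known p53 targets, and earlier results had already shown CDKN1A and MDM2 higher, so the counts are a description.

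Among the p53 feedback regulators 4 of 10 measured genes rose. PPM1D, a phosphatase that switches damage signalling off, rose by 0.87 ± 0.08, from 7.10, 7.47 and 7.66 to 8.14, 8.34 and 8.46. MDM2, the ubiquitin ligase that degrades p53, rose by 0.67 ± 0.07, from 9.21, 9.63 and 9.92 to 10.04, 10.24 and 10.53, and its groups did not overlap. TP53INP1, a nuclear cofactor of p53, rose by 0.64 ± 0.10, but a second probe set of the gene stood at -0.08, and the call was lost without number 5 (0.55) or without its vehicle array alone (0.58). PHLDA3, an inhibitor of AKT, was close to the fold limit at 0.61 ± 0.11 and was higher in 5 of 6 numbers. It was under 1.5-fold in 9 of 18 fits that left out arrays, and its second probe set, at 0.31, was not called.

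Cell cycle arrest genes followed, with 3 of 11 called higher. CDKN1A, the p21 inhibitor of cyclin-dependent kinases, went from 8.20, 8.39 and 8.67 to 8.96, 9.11 and 9.20, which is 1.61-fold (0.69 ± 0.08, adjusted p = 5.7e-08 in limma). SFN, the 14-3-3 sigma protein that holds back mitotic entry, rose by 0.77 ± 0.16 with overlapping groups. Its other probe sets stood at 0.28, which was not called, and at 1.89, which was. PLK3, a stress-responsive kinase, stood at the limit itself with 0.59 ± 0.13, was called in 8 of 18 fits that left out arrays, and had a second probe set at -0.03.

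Among death regulators 2 of 18 rose. FAS, the death receptor, moved from 7.04, 7.53 and 7.76 to 8.14, 8.40 and 8.49 (0.91 ± 0.10), with all 5 of its probe sets called. TP53I3, a quinone oxidoreductase, rose by 0.76 ± 0.12. Of 10 repair and nucleotide supply genes, DDB2, which recognises ultraviolet lesions, rose by 0.67 ± 0.08 and RRM2B, the p53-inducible ribonucleotide reductase subunit, by 0.62 ± 0.06. XPC, the partner sensor of helix distortion, and POLH, a translesion polymerase, passed the test below the fold limit at 0.54 ± 0.08 and 0.54 ± 0.06, and neither gene's groups overlapped. The POLH value is that of the brightest of its 5 probe sets, and 2 others were called, at 0.81 and 0.63.

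The group of metabolic, membrane and secreted p53 targets held 6 called higher of 46 measured. NECTIN4, a cell adhesion molecule, rose most, from 4.24, 4.83 and 5.72 to 6.23, 6.35 and 7.23 (1.68 ± 0.14, or 3.20-fold). SERPINB5, also called maspin, rose by 0.96 ± 0.13, TNFSF9, a T cell costimulatory ligand, by 0.91 ± 0.08, and ACER2, a ceramidase with a vehicle mean under 4, by 0.80 ± 0.17. KITLG, the KIT receptor ligand, and DGKA, a diacylglycerol kinase, rose by 0.68 ± 0.08 and 0.67 ± 0.14. GDF15, a secreted stress factor, passed the test at 0.32 ± 0.06 without reaching 1.5-fold. CD82, a tetraspanin, was the called exception, falling by 0.67 on the log2 scale (SE 0.12) from 5.80, 6.25 and 6.57 to 5.34, 5.46 and 5.86, and its call was lost without number 1 (-0.58). BTG2 was not analysed here.

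PURPL, a long noncoding RNA known as a p53 target that lowers p53 levels, lies outside the lists and is named here after its values were seen. It rose by 0.66 ± 0.19 (adjusted p = 0.0094 in limma), with overlapping groups at 4.45, 4.82 and 5.64 and at 5.14, 5.56 and 5.94. RefSeq promoter windows (250 bases before to 50 after the start, GRCh38.p14) were found for 9902 of the 12070 genes. A pair of p53 half-sites, read on both strands with 0 to 13 bases between them, occurred in 4 of the 9902, and PURPL was the only gene called higher among them. In all 27305 windows of the table the pair occurred in 8 (0.0293%). The stretch at chr5:27472150-27472199, plus strand, is shown because it holds this pair, in capitals, starting 127 bases before the start of transcription.
PURPL: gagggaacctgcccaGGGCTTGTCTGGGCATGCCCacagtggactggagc
None of the 14 windows of the called p53 list genes held the pair, which says only that these letters are not in this 300-base window. A single half-site, a motif added after the values were seen, occurred in 1 of 48 windows of genes called higher (2.08%). Among the 9902 windows of tested genes its share was 5.34%.

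No gene of the G1/S or G2/M lists was called at this dose. Of 50 measured G2/M and mitosis genes, 0 were called in limma and 0 passed at any fold, yet 49 of the differences were positive, with a median of 0.28. Over all genes 3729 had an unadjusted p under 0.05. CCNB1, the mitotic cyclin, stood at 10.20, 10.54 and 10.72 in vehicle and 10.47, 10.74 and 11.14 at 100 µM. Its difference of 0.30 ± 0.21 (adjusted p = 0.35 in limma) was positive in 6 of 6 numbers, as was that of KIF20A, a mitotic kinesin (0.34 ± 0.24, adjusted p = 0.38). These standard errors take the spread from all 47 MMS arrays, the 300 and 500 µM arrays included. In a fit on the 12 vehicle and 100 µM arrays alone the differences were the same, but the adjusted p was 3.80e-06 for CCNB1 and 6.14e-06 for KIF20A. In that fit 46 of the 50 G2/M genes passed the test upward at any fold and 0 downward, where 15.1% of all genes passed upward and 15.5% downward, and again 0 were called. The G2/M result at any fold thus depends on which arrays set the spread. Of 47 G1/S and replication genes, 0 were called, with a median of 0.09. Below the fold limit 17 passed the test upward (background 8.72% at any fold) and 4 downward (background 9.73%). MCM6, a subunit of the replicative helicase, was among the lower, at 9.33, 10.05 and 10.22 in vehicle and 9.06, 9.47 and 9.60 at 100 µM (-0.49 ± 0.10, adjusted p = 0.00069). The transcription factors E2F1 and E2F8 differed by -0.17 ± 0.12 and -0.07 ± 0.15 (adjusted p = 0.34 and 0.81).

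The enzymes that act on methylated bases were not called. MPG differed by -0.16 ± 0.07, MGMT by -0.18 ± 0.13 and ALKBH2 by -0.09 ± 0.07 (adjusted p = 0.10, 0.37 and 0.42 in limma). Of 28 measured base excision and direct repair genes, 0 were called, and the median was 0.04. At any fold 5 passed the test upward (background 8.72%) and 1 downward (background 9.73%). Mismatch repair (6 genes measured), translesion synthesis and fork protection (19) and homologous recombination with Fanconi anemia (20) also had 0 called genes. Their medians were 0.02, 0.10 and 0.28, and 0, 6 and 6 genes passed upward below the fold limit (background 8.72% at any fold).

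Genes called lower outnumbered those called higher. LRRC17, a secreted leucine-rich repeat protein, fell most, from 7.26, 7.42 and 7.79 to 5.18, 5.61 and 6.75, or 3.26-fold (log2 difference -1.70 ± 0.12, adjusted p = 5.3e-14 in limma). ITGB8, an integrin subunit that helps activate TGF-beta, fell from 4.76, 5.41 and 5.79 to 3.35, 3.59 and 4.23, which is near background. CEMIP, which breaks down hyaluronan, fell from 8.19, 9.24 and 9.84 to 6.39, 7.92 and 8.99. The CEMIP groups overlapped, because the arrays of each number lay high or low together, yet it was lower in 6 of 6 numbers (-1.45 ± 0.15).

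Further large falls covered signalling and adhesion. RPS6KA2, a ribosomal S6 kinase of the ERK pathway, changed by -1.48 ± 0.18, MAP2K6, a kinase that activates p38, by -1.24 ± 0.18, and PDE7B, a cyclic AMP phosphodiesterase, by -1.27 ± 0.17. Receptors among the 15 largest falls were TNFRSF19 (-1.36 ± 0.19, to a mean under 4) and LEPR, the leptin receptor (-1.23 ± 0.12). LEPR was not called without the block (adjusted p = 0.079 in limma). Its other probe sets stood at -0.47, -0.40 and -0.31 and were not called. GPC6, a heparan sulfate proteoglycan of the cell surface, fell from 8.65, 9.50 and 9.91 to 7.51, 8.05 and 8.55 (-1.30 ± 0.17). TENM4, a teneurin adhesion protein, fell from 6.29, 6.48 and 6.62 to 4.89, 5.18 and 5.40 (-1.29 ± 0.12). Neither pair of groups overlapped. TIMP3, an inhibitor of matrix proteases, changed by -1.26 ± 0.18 and BICC1, an RNA-binding protein, by -1.35 ± 0.14. TMEM45A, VAT1L and GALNT15, the last a glycosyltransferase, changed by -1.44 ± 0.15, -1.35 ± 0.20 and -1.43 ± 0.24. TIMP3 and GALNT15 each also had a probe set that was not called, at -0.48 and -0.42.

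The extracellular matrix and TGF-beta list had 7 genes called lower of 29 measured (background 1.92%) and 0 higher. At any fold 18 passed downward (background 9.73%) and 0 upward, and the median was -0.38. VCAN, the proteoglycan versican, fell from 8.73, 9.33 and 9.75 to 7.87, 8.42 and 8.62 with no overlap (-0.96 ± 0.16). COL13A1, a transmembrane collagen, fell from 10.47, 10.76 and 11.03 to 9.64, 9.93 and 10.15 (-0.81 ± 0.18), likewise without overlap. THBS1, thrombospondin, changed by -0.89 ± 0.26, a call lost without number 2, without number 6, without vehicle number 5 or without the block (adjusted p up to 0.23 in limma). COL1A1, a type I collagen chain, changed by -0.84 ± 0.20 and was not called without the block (adjusted p = 0.20) or, at -0.37, with its probe sets averaged. FN1, fibronectin, was among the brightest genes at 11.80, 12.11 and 12.31 and still fell to 11.09, 11.52 and 11.83 (-0.60 ± 0.09), with all 7 probe sets called. It lies at the fold limit and was under 1.5-fold in 6 of 18 fits that left out arrays. The remaining 2, COL5A1 and MMP2, are named after their values were seen: MMP2, a gelatinase, changed by -0.67 ± 0.10, and COL5A1 was under 4 in every array.

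In the stress lists that follow, most of the called genes were lower. ATF3, a stress-induced transcription factor, rose by 0.67 ± 0.13, from 4.56, 4.76 and 5.59 to 5.16, 5.52 and 6.31. It was the only gene called higher (background 0.522%) among 24 measured genes of the ATF4 integrated stress response and among 13 immediate early genes. ATF3 was not called without the block (adjusted p = 0.097 in limma), with the lower doses in the control or, at 0.38, with its probe sets averaged. In the ATF4 list 4 of the 24 genes were called lower (background 1.92%). STC2, a secreted glycoprotein, fell from 9.39, 9.61 and 10.11 to 8.19, 8.75 and 9.24 (-0.96 ± 0.11), SLC1A4, a neutral amino acid transporter, by -0.81 ± 0.20, VLDLR, a lipoprotein receptor, by -0.64 ± 0.12 and DDIT4, an inhibitor of mTOR named after its value was seen, by -0.61 ± 0.09. Without the block SLC1A4 and VLDLR were not called (adjusted p = 0.079 and 0.086 in limma), nor was SLC1A4, at -0.56, with its probe sets averaged. At any fold 10 of the 24 passed the test downward (background 9.73%) and 2 upward (background 8.72%), and the list median was -0.28. Of 22 hypoxia targets ALDOC, a glycolytic aldolase, was the 1 called lower (background 1.92%), at -0.69 ± 0.12, though not without the block (adjusted p = 0.15 in limma). At any fold 14 of the 22 passed downward (background 9.73%) and 0 upward (background 8.72%). Of 14 heat shock genes, 20 endoplasmic reticulum chaperones and 16 lipid synthesis genes 0 were called. At any fold 4, 0 and 0 of these passed the test upward (background 8.72%) and 0, 6 and 0 downward (background 9.73%), and the chaperone median was -0.10.

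Some histone genes that are transcribed in S phase were called lower. Most of these genes lie in clusters, lack introns and are switched on with DNA replication, and the H2B promoters are known for an octamer element bound by OCT1. Of 14 measured genes in the histone list, 5 were called lower (background 1.92%) and 0 higher. At any fold 7 passed the test downward (background 9.73%) and 0 upward, and the list median was -0.29. H2AC6 fell from 7.96, 8.28 and 8.56 to 6.86, 7.40 and 7.79 (-0.89 ± 0.13, adjusted p = 5.0e-06 in limma) with no overlap. H1-2, a linker histone, fell from 8.16, 8.46 and 8.86 to 7.21, 7.50 and 8.18 (-0.86 ± 0.12). H2BC4 and H2BC5 changed by -0.76 ± 0.16 and -0.73 ± 0.13, and H2BC21, named after its value was seen, by -0.64 ± 0.14. Histone paralogs are nearly identical in sequence, and labelling used a 3′ transcription kit. The gene behind each probe set is uncertain and the share of polyadenylated histone transcripts was not measured.

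Measured genes with numbered H1, H2AC, H2BC, H3C or H4C symbols were then taken, a choice made after the list had been seen. Variant histones with other symbols were left out, among them H2AX of the list, which stood at 0.27. Of the 25 differences 24 were negative, and 9 genes were called lower (background 1.92%). The calls were unequal between families: 7 of 9 H2B genes, 1 of 7 H2A genes and 1 of 2 H1 genes, but 0 of 2 H3 and 0 of 5 H4 genes. The H2B median was -0.66 and the H4 median -0.17. Differences between families were not tested.

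**Figure D2:**
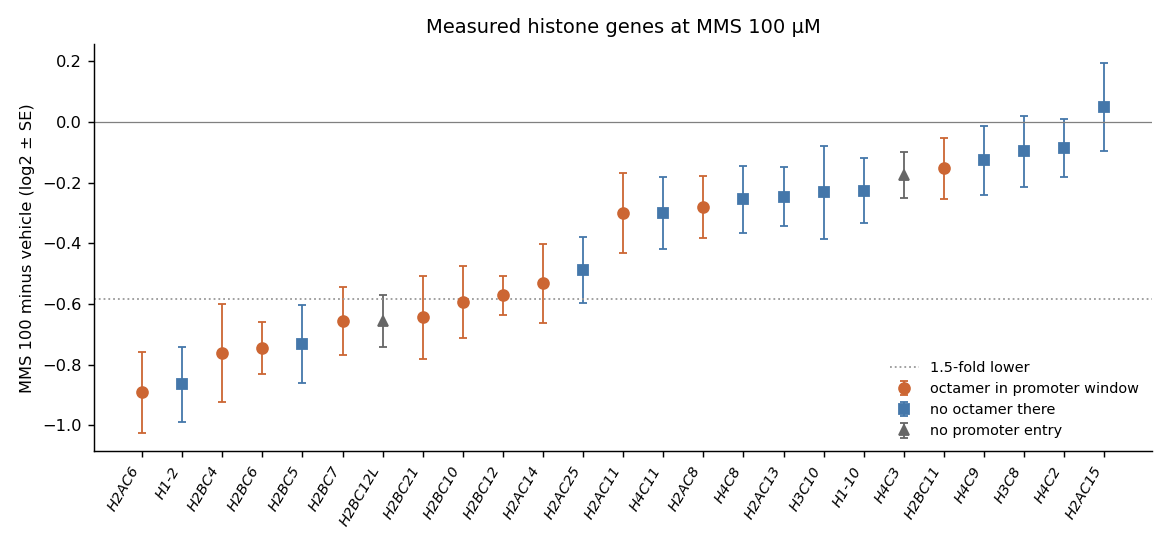
Difference between MMS 100 µM and vehicle (log2, with SE bars; n = 6 and 6) for 25 measured histone genes in order of the difference. Colour and shape show whether the promoter window holds the octamer, and the dotted line marks a fall of 1.5-fold. Of the 11 genes with the octamer, 6 are called lower, and of the 12 without it, 2 are.

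The octamer ATTTGCAT, also added after the values were seen, occurred on either strand in 11 of the 23 histone windows present in the table, in 1.21% of the 9902 windows of tested genes and in 1.80% of all windows. It was present in 6 of the 8 histone windows of genes called lower. The median difference was -0.59 for the 11 histone genes with the octamer and -0.24 for the 12 without it. Of the 11, 7 were H2B genes and 4 H2A genes. Among the H2A genes with the octamer only H2AC6 was called, H2BC11 carried it and stood at -0.15, and H2BC5 was called without it. The CCAAT box occurred in all 8 windows of the lower histone genes, in 82.6% of histone windows and in 36.8% of the windows of tested genes. The stretches below are printed, 5′ to 3′ on the strand of the gene, because they hold the octamer and the CCAAT boxes of 5 of the 6 lower genes with an octamer (H2BC10 is left out for length). Both motifs are in capitals, on either strand.
H2BC4: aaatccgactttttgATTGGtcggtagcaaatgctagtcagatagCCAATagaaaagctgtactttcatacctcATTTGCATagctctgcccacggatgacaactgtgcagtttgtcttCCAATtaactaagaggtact
H2AC6: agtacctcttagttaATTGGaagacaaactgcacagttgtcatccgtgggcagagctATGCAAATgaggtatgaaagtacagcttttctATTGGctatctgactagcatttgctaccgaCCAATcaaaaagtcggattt
H2BC6: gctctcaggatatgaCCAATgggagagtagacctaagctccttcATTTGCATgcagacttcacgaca
H2BC7: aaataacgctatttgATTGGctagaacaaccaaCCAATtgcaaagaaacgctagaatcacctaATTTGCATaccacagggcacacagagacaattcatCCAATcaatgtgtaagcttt
H2BC21: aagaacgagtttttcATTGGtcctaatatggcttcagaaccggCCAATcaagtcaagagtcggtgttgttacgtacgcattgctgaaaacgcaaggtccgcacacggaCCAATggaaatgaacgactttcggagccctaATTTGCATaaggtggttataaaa
The H2BC4 and H2AC6 stretches are the same region, chr6:26123985-26124123, read from opposite strands, since this pair of genes is transcribed away from a shared promoter. H2AC6 and H2BC4 were both called lower, so these 2 calls share an octamer and 3 CCAAT boxes. The H2BC6 stretch lies at chr6:26183609-26183675 and the H2BC7 stretch at chr6:26199342-26199459, both on the plus strand. H2BC21 lies apart from that cluster at chr1:149886706-149886867 on the minus strand. The octamer begins 46 bases before the start in H2BC21, 45 in H2BC10, 123 in H2BC4, 108 in H2BC6 and 111 in H2BC7. H2BC6 changed by -0.74 ± 0.09 and H2BC7 by -0.66 ± 0.11, and neither gene's groups overlapped.

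The genes called lower also spanned more of the genome. Span, from the first to the last base of the gene in RefSeq (GRCh38.p14), was known for 12057 genes. Its median was 80.4 kb for the 232 genes called lower, 26.7 kb for the 63 called higher and 30.0 kb for all genes tested. Of the called lower genes 41.4% exceeded 100 kb, against 18.7% of all. Genes over 300 kb were called lower in 7.57% of 436, those of 100 to 300 kb in 3.47%, and the 3 shorter classes (under 10, 10 to 30 and 30 to 100 kb) in 1.48%, 0.911% and 1.75%. The share called higher was between 0.441% and 0.647% in every class. GPC6 spans 1191.5 kb, TENM4 788.2 kb, RPS6KA2 453.4 kb, PDE7B 343.9 kb and BICC1 319.2 kb, whereas LRRC17, with the largest fall, spans 32.1 kb.

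The shift of long genes was small for the typical gene. The median difference was -0.14 (log2) for genes over 300 kb, -0.04 for 100 to 300 kb and between 0.00 and 0.02 for the shorter classes. By replicate number the median over 300 kb lay between -0.18 and -0.12 and was negative in 6 of 6. Among genes over 300 kb, 8.05% of those above the median vehicle level and 7.25% of those at or below it were called lower, shares of like size. Genes are not independent replicates, and no test was made of these shares. With no filter on low values the share over 300 kb was 4.24%, and with probe sets averaged 5.05%.

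**Figure D3:**
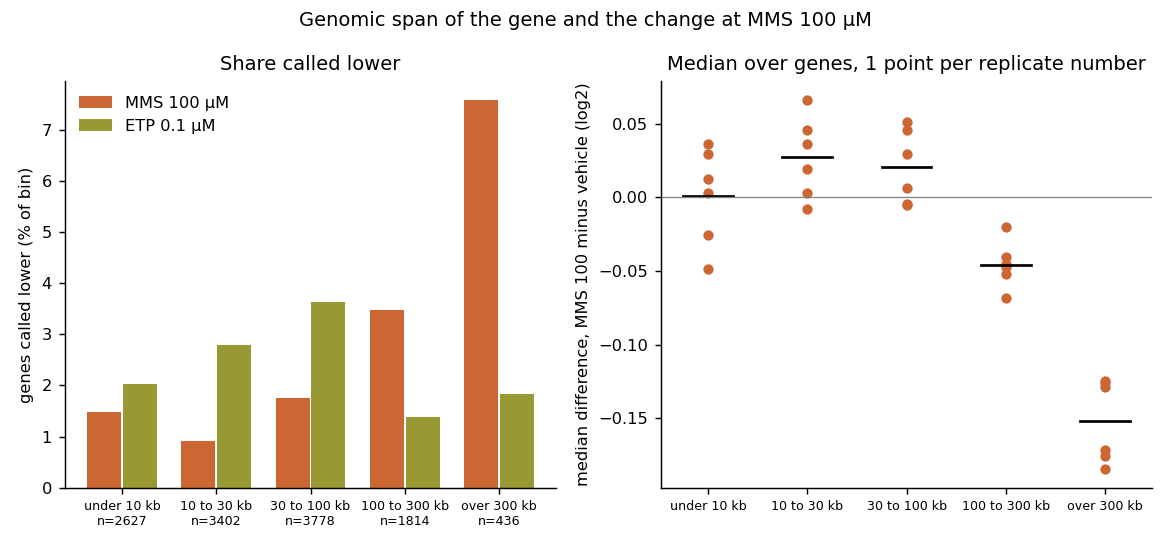
Left, percent of genes called lower in 5 classes of genomic span after MMS 100 µM and after ETP 0.1 µM, each against its own vehicle. Right, the median difference between MMS 100 µM and vehicle (log2) over the genes of each class, with a point per replicate number and a black line at their mean. The bar for MMS is highest over 300 kb (7.57%), where the ETP bar is 1.83%, and all 6 points there are below 0.

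The 100 µM dose was the lowest at which genes were called. At 1, 3, 10 and 30 µM limma called 0 genes. An unadjusted p below 0.05 was reached by 151 genes (1.25%), 135 (1.12%), 228 (1.89%) and 467 (3.87%) at these doses, and the adjusted p alone was passed by 4 (0.0331%), each of them higher at 30 µM. At 300 µM 1524 genes were called (12.6%), 554 higher (4.59%) and 970 lower (8.04%). At 500 µM 4187 were called (34.7%), 2106 higher (17.4%) and 2081 lower (17.2%). With no fold limit 52.6% and 71% of genes passed at these doses, and 57.5% and 72.7% had an unadjusted p below 0.05. All doses share the vehicle arrays, so the differences are given side by side. Among the 63 genes called higher at 100 µM, the median difference from vehicle was 0.23 after 30 µM, 0.71 after 100 µM, then 1.34 and 1.10 after the 300 and 500 µM doses. Among the 232 called lower it was -0.17, -0.74, -1.45 and -1.94 in the same order. The calls were repeated in the same direction at 300 µM for 62 of 63 and 228 of 232, and at 500 µM for 49 and 211.

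**Figure D4:**
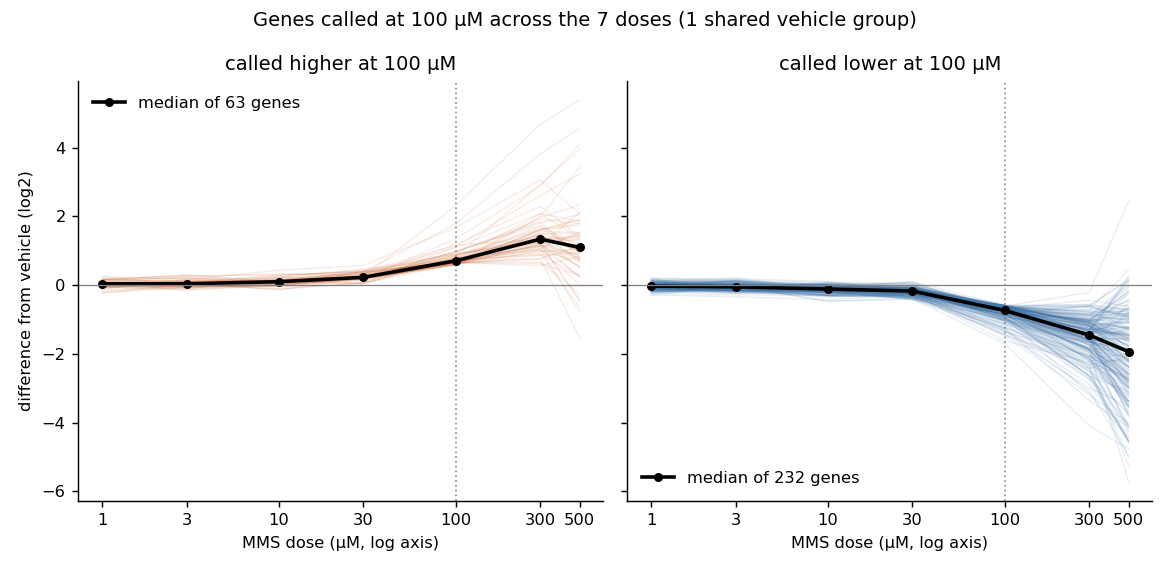
Difference from vehicle (log2) against MMS dose (log axis) for the 63 genes called higher and the 232 called lower at 100 µM. Thin lines are genes, black points are medians, the dotted line marks 100 µM and every dose shares the same vehicle arrays. The median of the higher genes is 1.34 at 300 µM and 1.10 at 500 µM, whereas that of the lower genes goes on down to -1.94.

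Neighbouring doses were compared directly, without the vehicle. From 30 to 100 µM 136 genes changed (1.13%), 22 higher (0.182%) and 114 lower (0.944%), and without the replicate block the count was 48. Of the genes called at 100 µM against vehicle, 20 of 63 and 111 of 232 were called in this comparison in the same direction, but it uses the same 100 µM arrays. AKR1C1 led the rises at 2.07 ± 0.15 and ITGB8 and LRRC17 the falls at -1.36 ± 0.14 and -1.31 ± 0.12. From 100 to 300 µM 544 genes changed (4.51%), 134 higher (1.11%) and 410 lower (3.4%). Of those called at 100 µM, 31 of 63 and 131 of 232 moved further and 0 moved back past the limits.

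The genes that changed most from 100 to 300 µM included some that were not called at 100 µM against vehicle. CSTA, a cysteine protease inhibitor, was higher by 2.40 ± 0.15 at 300 than at 100 µM. At 100 µM against vehicle CSTA stood at 0.47 ± 0.15, with both means under 4. That difference passed the test below the fold limit (adjusted p = 0.020 in limma). MYCT1 was higher by 1.76 ± 0.24 at 300 than at 100 µM and stood at 0.01 ± 0.24 at 100 µM against vehicle. Its vehicle and 100 µM means were under 4, so the size of its rise is uncertain. IL13RA2, a decoy receptor for interleukin 13, was higher by 2.09 ± 0.23 at 300 µM and was called at 100 µM (0.84 ± 0.23, with both means under 4), though not without the block (adjusted p = 0.088). TMEM71 was lower by 1.96 on the log2 scale at 300 than at 100 µM (written as a difference, -1.96 ± 0.14). It was not called at 100 µM against vehicle (-0.33 ± 0.14). GJB2, a gap junction protein, and SCG2, a secretogranin, changed by -2.21 ± 0.23 and -1.82 ± 0.23 from 100 to 300 µM. Both were already called lower at 100 µM against vehicle (-0.95 ± 0.23 and -0.93 ± 0.23). SCG2 was not called there without the block (adjusted p = 0.088 in limma). In the G2/M list the median against vehicle was 0.28 at 100 µM, -0.47 at 300 µM and -1.72 at 500 µM. CCNB1 was lower at 300 than at 100 µM by -1.14 ± 0.21 (adjusted p = 5.6e-05 in limma) and KIF20A by -1.59 ± 0.24.

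Some rises were not kept at the highest dose. DDB2 stood at 0.67 at both 100 and 300 µM and at -0.25 at 500 µM, and DGKA at 0.67, 1.06 and -0.78. HMOX1 went the other way, at -0.28, 0.28 and 3.93, and ATF3 at 0.67, 2.00 and 3.43.

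To set this dose beside another DNA-damaging agent, the response was compared with that to 0.1 µM ETP, a topoisomerase II poison that leaves DNA breaks. The doses are not matched in any measured sense, and the 2 exposures share no control array. The ETP arrays of number 2 were left out, as had been done before with these data, so 5 ETP arrays were set against 5 of its vehicle. Their median absolute deviation from the group's median over genes was 0.22 (log2) in the treated array, where the other numbers lay between 0.06 and 0.13. In the vehicle it was 0.13, within the range of 0.07 to 0.15 of the other numbers. ETP 0.1 µM called 519 genes (4.3%), 201 higher (1.67%) and 318 lower (2.63%). The responses differed in 1139 genes (9.44%), 524 higher (4.34%) and 615 lower (5.1%) after MMS relative to ETP. With ETP number 2 kept the count was 755, and without the replicate block 712.

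Most genes of both cell cycle lists were called lower after ETP. Of 50 G2/M genes, 32 were called lower after ETP (background 2.63%) and 0 after MMS. The difference between the responses was called in 47, all toward higher after MMS (background 4.34%). Of 47 G1/S and replication genes, 35 were called lower after ETP (background 2.63%) and 38 of the differences were called, all in the same direction (background 4.34%). Homologous recombination and Fanconi anemia genes had a median of -0.75 after ETP and 0.28 after MMS, with 14 of 20 differences called (background 9.44% in either direction). TCF19, a G1/S gene, had -1.59 after ETP and 0.27 after MMS (difference 1.85 ± 0.16, adjusted p = 2.5e-14 in limma). CCNE2, a cyclin of S phase entry, and POLE2, a DNA polymerase subunit, differed by 1.67 ± 0.24 and 1.63 ± 0.15. E2F8 differed by 1.53 ± 0.21. ESCO2, a cohesin acetyltransferase, rose after MMS by 0.79 ± 0.23 and differed by 1.61 ± 0.37, but its rise was not called without number 6, and neither its rise nor the difference was called without the block (adjusted p = 0.54 and 0.15 in limma). For TCF19, CCNE2 and POLE2 the number 5 vehicle array was far below the other 5. Without that array the differences were 1.79, 1.58 and 1.58, and without number 5 altogether 1.76, 1.57 and 1.61, all still called.

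**Figure D5:**
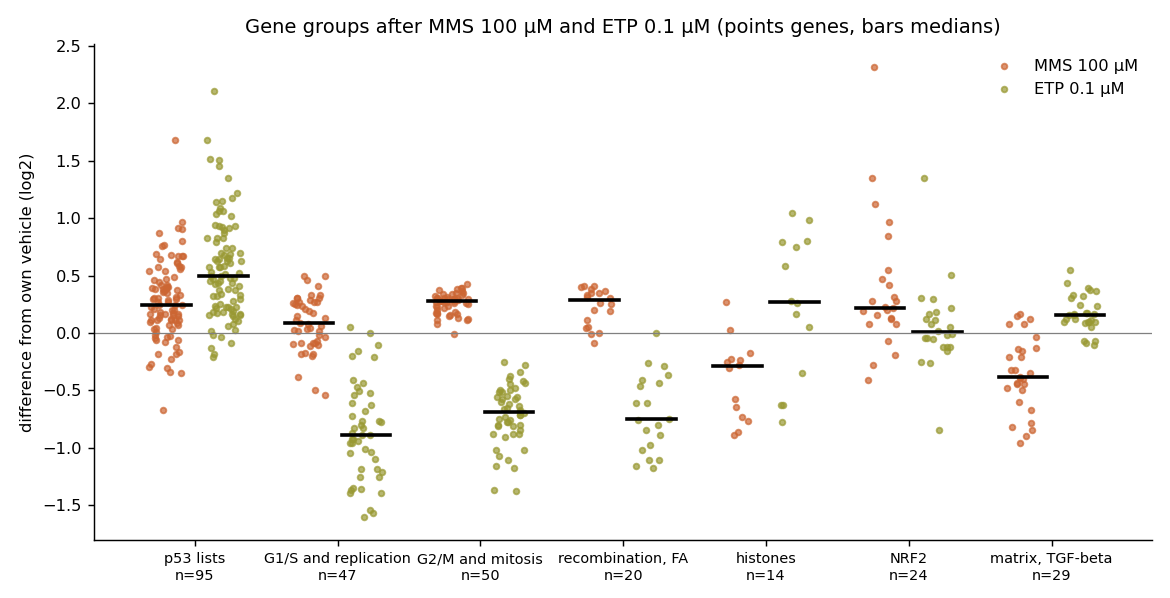
Difference from the own vehicle (log2) of each measured gene of 7 gene groups after MMS 100 µM (6 pairs) and ETP 0.1 µM (5 pairs). Points are genes, black bars are medians over the genes of a group and FA is Fanconi anemia. The p53 genes lie mostly above 0 after either agent, whereas the G2/M medians are 0.28 and -0.69 and the matrix medians -0.38 and 0.16.

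Of the 95 p53 targets 41 were called higher after ETP (background 1.67%) and 17 after MMS (background 0.522%), with medians of 0.50 and 0.25. The difference was called in 19 genes, 17 of them lower after MMS (background 5.1%), and was not called in the rest. TP53INP1 rose by 1.69 after ETP (difference -1.04 ± 0.14), and CD82 stood at 0.65 after ETP and -0.67 after MMS (difference -1.32 ± 0.18). For MDM2 and CDKN1A the differences of -0.40 ± 0.10 and -0.48 ± 0.12 passed the test below the fold limit. For SFN the difference was called toward higher after MMS (0.98 ± 0.24, adjusted p = 0.00079 in limma). SFN was at 0.77 after MMS and at -0.21 after ETP, where it did not pass the test (adjusted p = 0.41). NECTIN4 was at 2.11 after ETP and 1.68 after MMS, a difference not called (-0.43 ± 0.22, adjusted p = 0.13 in limma).

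In the histone list of 14 genes, 5 were called higher (background 1.67%) and 3 lower (background 2.63%) after ETP, against 0 higher and 5 lower after MMS. The difference between the responses was called lower after MMS in 8 of the 14 (background 5.1%) and higher in 1 (background 4.34%). That 1 was H2AX, the variant histone phosphorylated at DNA breaks, named after its values were seen, at -0.78 after ETP and 0.27 after MMS. H2BC4 was at 0.98 after ETP and -0.76 after MMS (-1.75 ± 0.20), and H2AC6 at 0.75 and -0.89 (-1.64 ± 0.17). In the matrix list 0 genes were called after ETP and 11 of 29 differences were called lower (background 5.1%). In the NRF2 list 5 of 24 differences were called higher after MMS (background 4.34%) and 2 lower (background 5.1%). AKR1C1 was at 0.30 after ETP (2.02 ± 0.21) and NQO1 at 0.02 (0.83 ± 0.07), while AKR1B10 was higher after both, at 1.35 and 0.97. Of the 232 genes called lower after MMS, 4 were called lower (background 2.63%) and 20 higher (background 1.67%) after ETP. Of the 63 called higher after MMS, 30 were called higher (background 1.67%) and 1 lower (background 2.63%) after ETP. Among the largest differences between the responses were CEMIP (-2.09 ± 0.19), FLG, the epidermal protein filaggrin (-1.94 ± 0.22), TMEM45A (-1.91 ± 0.18) and GALNT15 (-1.82 ± 0.28). The share called lower among genes over 300 kb was 1.83% after ETP (background 2.63%), and the difference between the responses was called lower in 16.3% of them (background 5.1%).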

How the data were processed

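The authors deposited log2 values per probe set, made with GCRMA in Partek per the submitters' processing notes (versions, and a genome build, are not given in the sources used here). Background correction and normalization by GCRMA compress low values, and means below 4 were treated as background. Arrays have no read depth, and the number of arrays limits the precision.

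Of 54613 probe sets, 40914 were paired with a single gene symbol, 864 with several and 12835 with none. Probe sets at 4 or more in at least 5 of the 145 arrays were kept (27102), and the probe set with the highest mean stood for each of 12070 genes. Groups and numbers came from the titles. limma 3.58.1 in R 4.3.3 with data.table at 1.17.8 was fitted to all 47 MMS arrays with the number as a block (lmFit, eBayes with a trend, 34 residual degrees of freedom). Calls needed a Benjamini-Hochberg adjusted p under 0.05 and 1.5-fold. The ETP difference was a contrast of contrasts with numbers blocked within each chemical, and ETP arrays sharing group and number were averaged.

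The pairing was checked across genes: same-numbered arrays deviated alike from their group means (correlations of 0.37 to 0.81, mean 0.59). Different numbers had a mean of -0.11 and a highest value of 0.43. That mean is no independent contrast, since deviations from a group mean sum to 0 over its arrays. For each of the 6 MMS 100 µM arrays the highest correlation was with the vehicle array of the same number. The script was tested on simulated data of 12070 genes with 200 changed: 37 of 67 genes changed 1.5-fold, all 67 changed 2-fold and 0 of 11870 unchanged genes were called.

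Members and lists were chosen with earlier results of these data known. Named genes were the 15 largest rises and falls moving the same way in all 6 numbers, up to 4 called members of each of 33 lists (all for p53), a fixed set of damage genes, and the 5 largest differences each way in the further comparisons. Promoters and gene spans came from RefSeq (GRCh38.p14), and figures were drawn with matplotlib 3.10.9 (pandas 2.3.3). Alternatives covered the block, the samples in the fit, the control, filters, probe set averaging, the trend, normalization, fold limits and leaving out arrays.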

Additional observations from a re-analysis of the deposited data

Results flagged for a closer look

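Of 166 groups of 6 arrays (83 named genes, vehicle and 100 µM), 13 had a lowest or highest array that stood apart by Dixon's test, where chance flags about 1 in 20, or 8.3. Of the 13, 5 were the vehicle array of number 5 and 5 the 100 µM array of number 5. Replication genes made up most of these. TCF19 was lowest in number 5 at 5.00 in vehicle (others 6.50 to 7.10) and at 5.79 at 100 µM (others 6.74 to 7.26). POLE2 was likewise lowest there at 6.06 (others 7.16 to 7.73) and at 6.60 (others 7.42 to 7.89). CCNE2 in vehicle number 5 was 5.89 (others 7.15 to 7.87), KIF20A 8.21 (others 8.74 to 9.05) and MCM6 in 100 µM number 5 was 9.06 (others 9.40 to 9.60). The same number held the lowest vehicle level of SERPINB5, 7.46 (others 8.16 to 8.57), the lowest 100 µM level of MAP2K6, 4.02 (others 4.64 to 4.78), and the highest 100 µM level of LEPR, 6.13 (others 3.97 to 4.70).

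Elsewhere, AKR1C1 was highest in vehicle number 6 at 6.13 (others 5.29 to 5.54). DDB2 was highest in vehicle number 4 at 8.97 (others 8.48 to 8.63). SCG2 was lowest in vehicle number 3 at 7.11 (others 8.12 to 8.44).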

How the results depend on the processing

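Without the replicate block the counts were 194 changed (144 lower), 48 between 30 and 100 µM and 712 differing from ETP, and the pairing thus raised each by over 1.5 times. A random block, the 12 arrays alone, leaving out the 500 µM dose, filters, probe set averaging, no trend and renewed quantile normalization kept each count within 1.5 times. With the lower doses in the control 10 p53 list genes were called. With ETP number 2 kept 755 genes differed. With no fold limit 2227 genes were changed (1053 higher, 1174 lower), with 58 p53 and 28 cell cycle and histone list genes, 974 between 30 and 100 µM, 3924 between 100 and 300 µM and 3902 differing from ETP. With a limit of 2-fold these were 42 (9 and 33), 1, 0, 16, 120 and 302. Leaving out single arrays or numbers gave 275 to 322 changed, 58 to 75 higher, 217 to 250 lower, 16 to 20 p53 list genes, 5 to 6 cell cycle and histone list genes, 375 to 651 between 100 and 300 µM, 104 to 170 between 30 and 100 µM, and 1075 to 1279 differing from ETP. No called gene named here reversed direction under an alternative that was run. Changes of sign were not counted for genes called neither in the main fit nor in the alternative. The causes of these shifts were not tested.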

Other observations

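The genes in this section were chosen after their values were seen. ERCC6, the Cockayne syndrome B protein of transcription-coupled repair, fell from 6.02, 6.26 and 6.52 to 5.18, 5.57 and 5.97 (log2; lowest, median and highest of 6 arrays) with no overlap, a difference of -0.66 ± 0.10 (adjusted p = 4.6e-06 in limma). PGBD3, whose sequence lies inside ERCC6 and shares transcripts with it, changed by -0.75 ± 0.09, so these 2 calls may read the same RNA. ERCC6 was at 0.41 after ETP 0.1 µM, and the difference between the responses was called (-1.07, adjusted p = 6.7e-10).

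TGFB2, a TGF-beta ligand, changed by -0.98 ± 0.26 without overlap, TGFBR3, a coreceptor, by -0.73 ± 0.16, LTBP1, which stores the latent ligand, by -0.68 ± 0.18, and INHBA, an activin subunit, by -0.89 ± 0.11. PMEPA1, a feedback inhibitor of TGF-beta signalling, changed by -0.63 ± 0.16. The transcription factors RUNX2, GATA3, GATA6 and NR2F1 were called at -0.78 ± 0.14, -0.75 ± 0.14, -0.63 ± 0.16 and -0.80 ± 0.13. CA12, a carbonic anhydrase, fell from 7.10, 7.18 and 7.55 to 5.97, 6.08 and 6.32, with no overlap. ROR1, a receptor tyrosine kinase gene of 407.5 kb, changed by -1.21 ± 0.15 to a mean under 4.

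Upward, the long noncoding RNAs LINC00520 and LINC02249 changed by 0.86 ± 0.06 and 0.79 ± 0.07, the latter without overlap. TRAF4, RBM38 and CASP6, known p53 targets that the lists did not hold, changed by 0.67 ± 0.11, 0.66 ± 0.12 (from a vehicle mean under 4) and 0.61 ± 0.11. DDIAS, an antiapoptotic gene, and REXO5, an RNA exonuclease, rose by 0.62 ± 0.10 and 0.71 ± 0.11 and stood at -0.45 and -0.41 after ETP 0.1 µM.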
